A study of Mus musculus with 9 samples.

Results

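Collagen processing and crosslinking enzymes were examined in the stroma around mouse prostate lesions. The members were 9 genes chosen by name: Pcolce, Crtap, Serpinh1, P4ha1, P4hb, Plod1, Plod2, Lox and Loxl2. A gene was measured where a row of the array carried its symbol, alone, in the platform's probe table, which held for 4 of the 9 (Pcolce, Crtap, Serpinh1 and P4hb), with 7 cDNA clones between them, out of 8146 genes with such a row. P4ha1, Plod1, Plod2, Lox and Loxl2 were matched to no row and were not analysed here. Crosslinking by lysyl oxidases and both of these lysyl hydroxylases were therefore left without a value.

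All mice were FVB males hemizygous for the CR2-TAg transgene, in which cryptidin-2 regulatory elements drive SV40 large T antigen in neuroendocrine cells of the prostate, and no mice without the transgene were among the samples. Stroma was cut out by laser from the prostates of mice aged 24 weeks with invasive cancer (n = 6) and of mice aged 10 weeks with prostate intraepithelial neoplasia, or PIN, the stage before invasion (n = 3). Each array held the RNA of 1 mouse, labelled with Cy5, against a pool of 4 PIN samples labelled with Cy3, and the dyes were not swapped. The PIN samples were part of that pool, and the array of PIN sample 1 was not analysed here. A value is therefore the log2 ratio of one mouse's stroma to the PIN pool. It holds no level, so genes are compared here by their differences between stages and never by abundance. Age rose with stage in these mice, and the part of each cannot be told apart. As the tissue was bulk stroma, fewer cells of a type and less RNA per cell cannot be told apart either.

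Fibrillar collagen is made as procollagen in the endoplasmic reticulum, where prolyl and lysyl residues are hydroxylated before 3 chains wind into a triple helix, and the chaperone Hsp47 holds the helix until it is secreted. Outside the cell, proteases remove the propeptides so that fibrils can assemble, and lysyl oxidases then crosslink them. Fibroblasts are the main producers of such collagen in most tissues, and a crosslinked collagenous stroma is a familiar feature of invasive carcinomas.

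The 4 measured genes stand at 3 steps of this route. P4hb encodes protein disulfide isomerase, which is also the beta subunit of collagen prolyl 4-hydroxylase. Crtap encodes cartilage-associated protein, a partner of prolyl 3-hydroxylase 1, and Serpinh1 encodes Hsp47. Pcolce encodes a secreted enhancer of the protease that removes the C-terminal propeptide. The sequences before their start sites are shown as a description, and their bearing on the array values was not tested. Each window is the 250 bases upstream of the start in the RefSeq promoter table, read 5′ to 3′ on the gene's strand, which was the minus strand for all 4. For Pcolce that start lies inside the annotated gene, so that 118 bases of its window overlap the gene, and the 132 bases outside it are printed. The other 3 windows end where the gene begins and are printed whole. In GRCm38.p6 the printed sequences lie at chr5:137611523-137611654 (Pcolce), chr9:114390713-114390962 (Crtap), chr7:99353240-99353489 (Serpinh1) and chr11:120573254-120573503 (P4hb). Capitals mark the Sp1 box GGGCGG on either strand and the CCAAT box on either strand.
Pcolce: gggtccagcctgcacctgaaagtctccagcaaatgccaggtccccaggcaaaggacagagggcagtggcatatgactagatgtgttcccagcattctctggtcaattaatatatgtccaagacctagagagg
Crtap: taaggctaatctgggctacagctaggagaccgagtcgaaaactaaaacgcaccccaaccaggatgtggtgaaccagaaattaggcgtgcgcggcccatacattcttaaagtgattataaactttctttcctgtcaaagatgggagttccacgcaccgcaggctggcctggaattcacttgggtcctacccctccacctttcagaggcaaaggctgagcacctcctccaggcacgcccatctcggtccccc
Serpinh1: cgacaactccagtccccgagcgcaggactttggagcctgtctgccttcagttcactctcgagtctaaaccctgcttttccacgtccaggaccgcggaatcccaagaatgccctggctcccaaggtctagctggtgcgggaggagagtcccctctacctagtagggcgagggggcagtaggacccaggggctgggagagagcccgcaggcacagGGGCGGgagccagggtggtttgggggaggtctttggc
P4hb: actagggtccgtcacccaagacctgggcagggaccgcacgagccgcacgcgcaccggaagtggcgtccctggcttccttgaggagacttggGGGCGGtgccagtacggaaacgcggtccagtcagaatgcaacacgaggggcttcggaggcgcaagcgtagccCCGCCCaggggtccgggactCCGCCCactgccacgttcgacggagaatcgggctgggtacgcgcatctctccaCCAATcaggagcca

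P4hb had 3 Sp1 boxes and 1 CCAAT box in this window, Pcolce and Serpinh1 had 1 Sp1 box each, and Crtap had neither motif. An Sp1 box was found in 32.7% and a CCAAT box in 33.8% of 32851 mouse promoter windows of the same length. The GC content was 58.8% for Pcolce, 53.6% for Crtap, 63.6% for Serpinh1 and 66.8% for P4hb, against a median of 52.4% over all windows. Crtap also held 1 TATAAA, which 12.4% of the windows hold. Each of the 4 held 1 CCACG, the half-site of the endoplasmic reticulum stress element, found in 28.3% of windows, and none held GAANNTTC, the paired half-site of the heat shock element, found in 6.69%. The Sp1 box and the CCACG of Pcolce lie in the part of its window that overlaps the gene. These matches are letters in a window and nothing was measured at them.

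Pcolce was higher in invasive cancer stroma than in PIN stroma and was the one member gene of the 4 to pass at a false discovery rate of 0.15, the threshold that the study used. Over all genes 457 of 8106, or 5.64%, passed, with 3.75% higher and 1.89% lower. With the stricter limit of 0.05 on the adjusted p from limma none of the 4 passed, against 0.938% of all genes, although Pcolce and Crtap had an unadjusted p under 0.05. Crtap, Serpinh1 and P4hb had positive differences that did not pass. The median difference over all genes was 0.02 on the log2 scale, and 4216 of the 8106 were positive.

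The Pcolce log2 ratios, as the mean of 2 clones, were 1.29, 1.73, 1.04, 0.89, 1.30 and 0.88 on the arrays of invasive replicates 1 to 6, and 0.26, 0.42 and -1.07 on those of PIN replicates 2, 3 and 4. No invasive array fell as low as the highest PIN array, which held for 4.86% of all genes, and PIN replicate 4 stood well below the other PIN arrays. The group means were 1.19 ± 0.32 (SD, n = 6) and -0.13 ± 0.81 (SD, n = 3). Their difference was 1.32 (SE 0.32, adjusted p = 0.0649 from limma), or 2.50-fold with a 95% interval of 1.55 to 4.03. Pcolce ranked 155 among the 8106 genes by p. The difference was 0.86 (adjusted p = 0.139) without PIN replicate 4, and it no longer passed without PIN replicate 2 (1.52, adjusted p = 0.177). It stayed past the threshold when any other single array was left out.

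The 2 Pcolce clones gave much the same picture. Clone 2093 differed by 1.38 (SE 0.32, adjusted p = 0.0892 over 17207 clones) and clone 5365 by 1.26 (SE 0.35, adjusted p = 0.152), and in both the 6 invasive values exceeded the 3 PIN values without overlap. Of all clones 2.16% passed, 1.52% as higher, 0.459% passed at 0.05, and 3.73% were separated in this way. The clones' own differences were 0.12 apart (p = 0.524, two-sided exact permutation test). In clone 5365 invasive replicate 2 stood out at 1.76, with the next array at 1.05. Clone 2093 did not pass without invasive replicate 2, 4 or 5 or without PIN replicate 2 or 4, and its difference ranged from 0.95 to 1.70 as each array was left out.

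**Figure D1:**
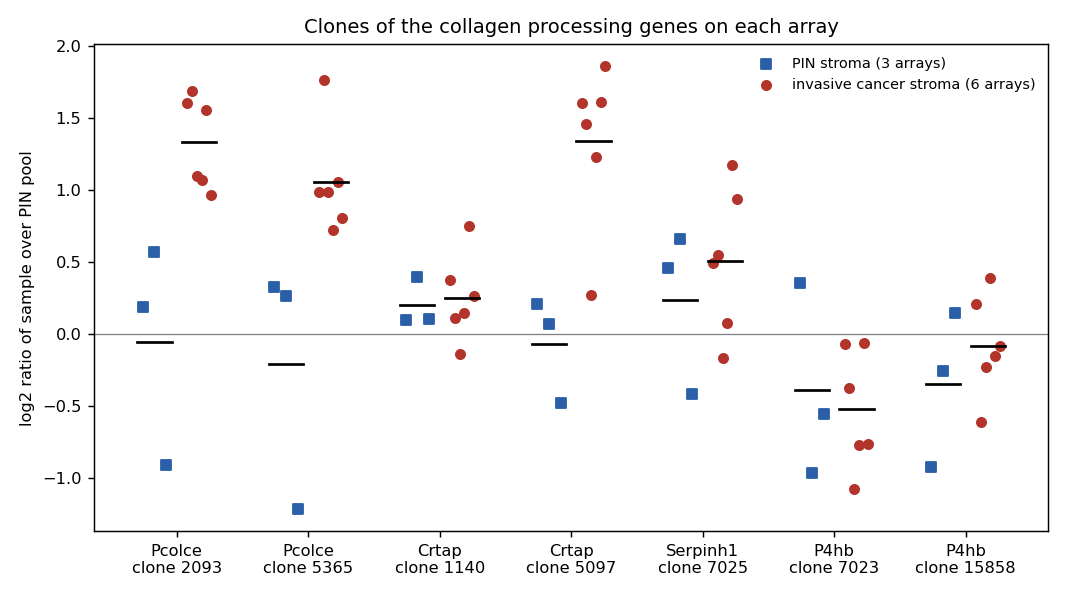
Log2 ratio over the PIN pool of each of the 7 clones on each array. The clones stand side by side on a shared axis, each with the 3 PIN arrays on the left and the 6 invasive arrays on the right. Both clones of Pcolce and clone 5097 of Crtap had no overlap between stages, with the invasive arrays higher, while the stages overlapped in the other 4 clones.

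The mean of both Crtap clones was higher by 0.73 in invasive stroma (SE 0.25, adjusted p = 0.175 from limma), which did not pass, or 1.66-fold, with a 95% interval of 0.19 to 1.27 on the log2 scale. The ratios were 0.99, 0.78, 0.06, 0.69, 1.18 and 1.06 on invasive replicates 1 to 6 and 0.15, 0.23 and -0.19 on PIN replicates 2, 3 and 4. Invasive replicate 3 fell within the PIN range and the other 5 invasive arrays lay above it. Without that array the difference was 0.88 and passed (adjusted p = 0.0293).

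That mean covered 2 clones that recorded different things. Clone 5097 read 1.61, 1.45, 0.27, 1.23, 1.61 and 1.86 on the invasive arrays against 0.21, 0.07 and -0.48 on the PIN arrays, with no overlap. Its difference was 1.41 (SE 0.33, adjusted p = 0.0892), or 2.65-fold. Clone 1140 read 0.37, 0.11, -0.14, 0.15, 0.75 and 0.26 against 0.09, 0.40 and 0.10, so that the groups overlapped. Its difference was 0.05 (SE 0.23, adjusted p = 0.974). The gap between the clones, 5097 minus 1140, averaged 1.09 ± 0.41 (SD, n = 6) over the invasive arrays and -0.27 ± 0.35 (SD, n = 3) over the PIN arrays, and it was larger on every invasive array than on any PIN array. The 2 gaps differed by 1.35 (p = 0.0238, two-sided exact permutation test, the smallest that its 84 splits can give), and after adjustment over the 3 clone pairs, which were compared after their values were seen, p was 0.0714. The sequences of the clones were not analysed here, and which of them stands for the Crtap transcript was not tested. The study listed clone 5097 as changed on these same samples, so its call is not independent evidence. It did not pass without invasive replicate 2, 4, 5 or 6, or without any one of the PIN arrays, where the difference ranged from 1.20 to 1.55 and the adjusted p from 0.161 to 0.282.

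Serpinh1 showed no difference beyond the spread between mice. Its single clone read 0.49, 0.55, -0.17, 0.08, 1.17 and 0.93 on the invasive arrays and 0.46, 0.66 and -0.42 on the PIN arrays. Invasive replicates 5 and 6 were the highest of the 9, and the other 4 lay among the PIN values. The difference was 0.28 (SE 0.32, adjusted p = 0.763 from limma) with a 95% interval of -0.42 to 0.98, which leaves room for changes of either sign. Without PIN replicate 4 it was -0.05.

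P4hb had the smallest difference of the 4, at 0.07 (SE 0.21, adjusted p = 0.924 from limma, 95% interval -0.38 to 0.52). The ratios were 0.07, -0.50, -0.66, -0.19, -0.11 and -0.42 on the invasive arrays and -0.29, -0.61 and -0.21 on the PIN arrays. Invasive replicates 1, 4 and 5 lay above the PIN values, replicate 3 below them and the other 2 among them. All but 1 of these 9 ratios were negative, in PIN as in invasive stroma. Clone 7023 had a difference of -0.13 (SE 0.32) and clone 15858 one of 0.27 (SE 0.29), and neither passed. The sign of the P4hb mean turned without invasive replicate 1 (-0.01) or PIN replicate 3 (-0.06).

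Set side by side as means of clones, the differences fell in the order Pcolce, Crtap, Serpinh1 and P4hb. The place of Crtap holds for neither of its clones. Clone 5097 (1.41) lay above the Pcolce mean (1.32) and clone 1140 (0.05) below the P4hb mean (0.07). The pairs with Crtap below use the mean of these clones. The 6 pairs were compared array by array with two-sided exact permutation tests, chosen after the values were seen and adjusted over the 6. Pcolce exceeded Serpinh1 by 1.05 and P4hb by 1.26, each with every invasive array above every PIN array (exact permutation p = 0.0238 for both, adjusted p = 0.0714). Crtap exceeded P4hb by 0.66 (adjusted p = 0.0952) and Serpinh1 by 0.45 (adjusted p = 0.107). Neighbours in the order were not separated at either end, with 0.59 between Pcolce and Crtap (adjusted p = 0.2) and 0.21 between Serpinh1 and P4hb (exact permutation p = 0.595). No pair reached an adjusted p under 0.05. Pcolce with Serpinh1 and with P4hb were already at 0.0238, the smallest p that the 84 splits of the permutation test can give. A p that misses a threshold does not show that these genes moved alike.

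**Figure D2:**
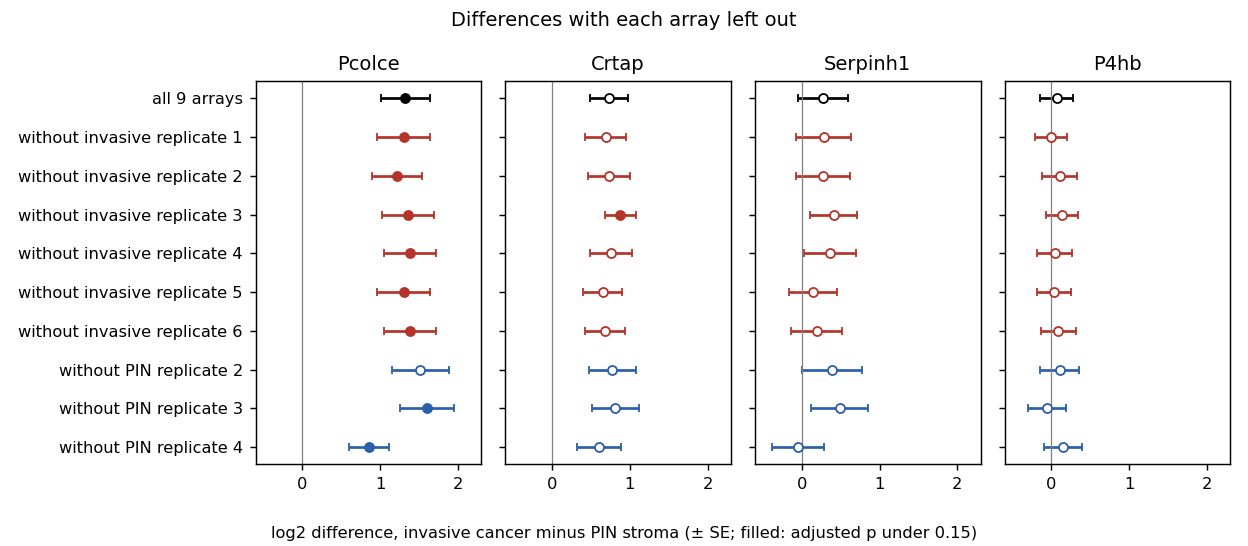
Log2 difference, invasive minus PIN, of each of the 4 genes with all 9 arrays and with each array left out in turn. Pcolce ranged from 0.86 to 1.60 and Crtap from 0.60 to 0.88, both above 0 throughout, while Serpinh1 (-0.05 to 0.49) and P4hb (-0.06 to 0.15) crossed 0.

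Of 13 measured genes among 30 listed for other steps of collagen biosynthesis, 1 was higher and none lower, beside 5.64% of all genes passing and 3.75% higher, and their median difference was 0.24, with 10 of them positive. The one that passed was Plod3, which encodes a lysyl hydroxylase that also adds sugars to hydroxylysine. It read 0.66, 0.78, 0.64, 0.76, 1.28 and 1.04 on the invasive arrays and 0.35, 0.20 and -0.30 on the PIN arrays, with no overlap. Its difference was 0.77 (SE 0.22, adjusted p = 0.112), or 1.71-fold. It kept passing only without invasive replicate 1 or 3, and without any one of the other 7 arrays the adjusted p ranged up to 0.253.

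Some further genes of that list are named for their link to the members, having been picked after their values were seen. P3h1, which encodes the hydroxylase that binds cartilage-associated protein, reached 0.65 (SE 0.22, adjusted p = 0.167) on the log2 scale, without overlap between the stages. Bmp1, which encodes the protease that the Pcolce product enhances, had 0.54 over 3 clones (SE 0.29, adjusted p = 0.406). P4ha2, one of the alpha subunits that pair with the P4hb product, had 0.12 (SE 0.27, adjusted p = 0.890). None of these 3 passed.

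The fibrillar collagens are the substrates of these enzymes. Of 9 fibrillar collagen chain genes 6 were measured, 3 were higher and none lower, and the median difference was 0.96. For this list and those that follow, the shares over all genes were 3.75% higher and 1.89% lower. Col3a1 had a difference of 1.55 (SE 0.31, adjusted p = 0.0431) over 4 clones and Col1a2 one of 1.55 (SE 0.32, adjusted p = 0.0458) over 3 clones, and both lost the call only without PIN replicate 2 (adjusted p = 0.158 for both). These means covered clones that differed widely. The Col3a1 clones had 2.65, 2.58, 0.78 and 0.20, and the Col1a2 clones 2.80, 1.63 and 0.21. Col5a1 had 1.67 (SE 0.49, adjusted p = 0.123) and passed in only 1 of the 9 settings that leave out an array, the one without invasive replicate 3. Col1a1, also named after its value was seen, had 0.35 (SE 0.22, adjusted p = 0.493), which missed the threshold.

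**Figure D3:**
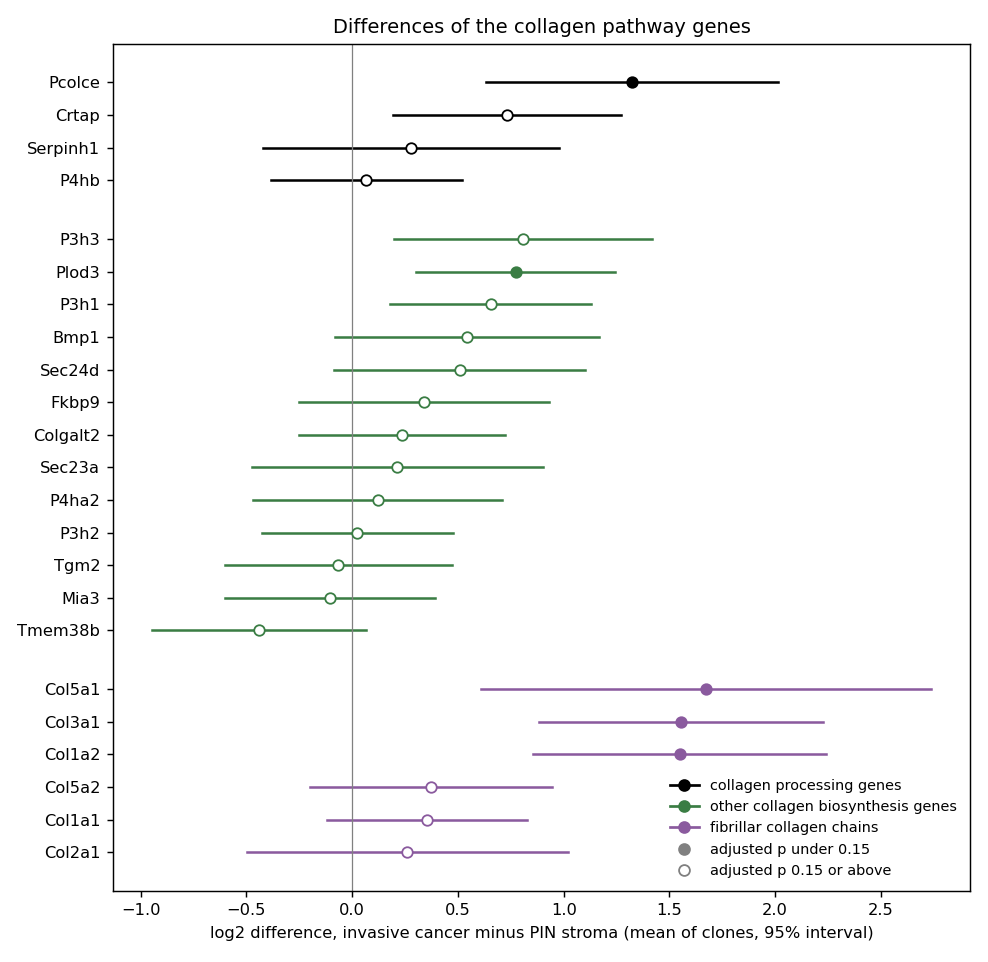
Log2 difference, invasive minus PIN, with its 95% interval for the 4 member genes, the other collagen biosynthesis genes and the fibrillar collagen chains, filled where the adjusted p was under 0.15. The chains Col5a1, Col3a1 and Col1a2 and the member Pcolce lie farthest to the right, and most biosynthesis genes have intervals that include 0.

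Genes of collagen uptake and breakdown included 2 higher and none lower among 7 measured, with a median of 0.14. Mmp2, a gelatinase gene, was higher by 1.86 (SE 0.25, adjusted p = 0.00543) and passed with any single array left out. Mmp14, whose product activates the Mmp2 proenzyme at the cell surface, was higher by 2.03 (SE 0.56, adjusted p = 0.109), a call that was lost without invasive replicate 4, 5 or 6 or without any one PIN array (adjusted p up to 0.295).

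Hypoxia induces several enzymes of collagen processing, and endoplasmic reticulum stress induces chaperones, so both responses were looked at beside them. Of 11 measured hypoxia response genes 2 were higher and none lower, with a median of 0.17. These were Ldha (1.39, SE 0.28, adjusted p = 0.0458), a lactate dehydrogenase gene, and Adm (1.57, SE 0.35, adjusted p = 0.0565), which encodes adrenomedullin, and both lost the call without PIN replicate 2 or 3 (adjusted p up to 0.198 and 0.229). Positive differences were found in all 10 measured chaperone genes, and in 4216 of all 8106 genes. The median of the chaperone genes was 0.41, and 1 of them passed. This was Hsp90b1 (0.92, SE 0.24, adjusted p = 0.0945), whose call held only without invasive replicate 1 or 3 and was lost without any one of the other 7 arrays (adjusted p up to 0.249).

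Markers of other cell types were read in the same comparison. None of 6 measured fibroblast markers of 9 passed (median difference 0.52), and their mean ratio ranged from -0.16 to 0.92 on invasive and from -0.44 to 0.24 on PIN arrays. Without invasive replicate 3, however, 3 of these fibroblast markers passed as higher, and without invasive replicate 1 there was 1. No fibroblast marker passed when any other single array was left out. All 4 measured macrophage markers of 10 were higher, and their mean ranged from 1.24 to 3.16 against -0.45 to 0.51. Without PIN replicate 2 or 3 the count was 3. Of 3 smooth muscle markers 2 were lower, with a mean of -2.84 to -0.46 against -0.38 to 0.27. None of them passed without invasive replicate 2, 4 or 5 or PIN replicate 2 or 3, and 1 passed without invasive replicate 6 or PIN replicate 4. Of 4 endothelial markers 1 was higher, and 2 without invasive replicate 3. Pdgfrb, the 1 gene measured of 6 listed for pericytes and activated fibroblasts, was higher by 1.14 (SE 0.26, adjusted p = 0.0602). Its call was lost without PIN replicate 2 or 3 (adjusted p up to 0.226). Of 3 epithelial markers none passed, with means of -1.79 to 0.41 against -1.56 to 0.78. Foxa2, the 1 gene measured of 7 listed for neuroendocrine cells, was higher by 2.50 (SE 0.64, adjusted p = 0.0871 from limma). It ranged from 0.46 to 4.45 on invasive and from -0.48 to 0.35 on PIN arrays. The Foxa2 call was lost without invasive replicate 4 or 5 or PIN replicate 2 or 3. A ratio to a pool does not show whether a marker is present, so the labelled tissue could not be checked by level. The part of these cells in the collagen genes was not tested.

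Pcolce, Crtap, Serpinh1, the collagen chains and the fibroblast markers shared some of their low arrays. PIN replicate 4 was the lowest of the 9 arrays for Pcolce, Crtap, Serpinh1 and the means of the chains and of the fibroblast markers, but not for P4hb. Among the invasive arrays, replicate 3 was the lowest for Crtap, Serpinh1, P4hb and both of those means, and Pcolce was not lowest there. Foxa2 was at its highest on that array. The mean of the 3 epithelial markers was 0.78 on PIN replicate 4 and 0.41 on invasive replicate 3. It was negative on every other array. Epcam, Krt18 and Cdh1 read 1.43, 0.65 and 0.25 on PIN replicate 4 and 1.36, -0.01 and -0.11 on invasive replicate 3. These arrays were the highest of the 9 for Epcam and Krt18, but Cdh1 on invasive replicate 3 lay below every PIN array. The part of epithelial signal in these low arrays was not tested. The correlation of PIN replicate 4 over all clones was 0.176 and 0.189 with the other PIN arrays, which had 0.672 with each other, and 0.218 to 0.293 with the invasive arrays.

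**Figure D4:**
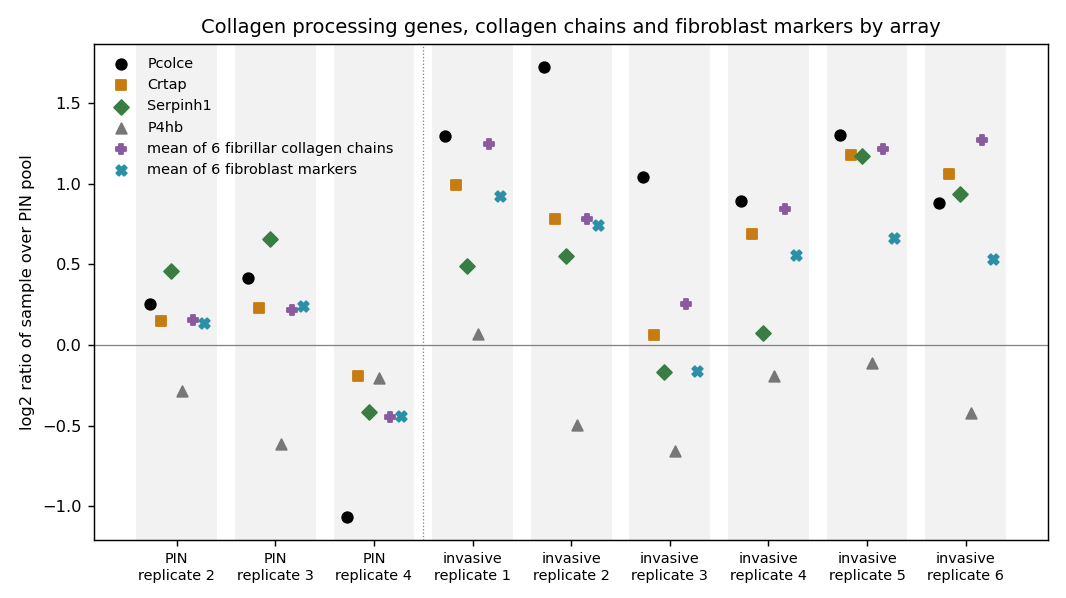
Log2 ratio over the PIN pool of Pcolce, Crtap, Serpinh1 and P4hb on each array, beside the mean of 6 fibrillar collagen chains and the mean of 6 fibroblast markers. All but P4hb have their lowest value on PIN replicate 4, and Crtap, Serpinh1, the chains and the fibroblast markers are lower on invasive replicate 3 than on the other invasive arrays.

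The genes with profiles most like each member were taken by Pearson's r over the 9 arrays, among 8083 genes, as a description of arrays that share one reference pool. For Pcolce they were Mtf1 (0.989), Etv5 (0.961) and Rbpj (0.954). For Crtap they were Bicc1 (0.983), Mgat1 (0.980) and Lrrc8a (0.974). For Serpinh1 they were Atxn7l1 (0.927), Rnf19b (0.926) and Nos2 (0.920), and for P4hb Tex19.1 (0.901), Rps6kc1 (0.896) and Slc25a13 (0.854). No fibrillar collagen chain was among the 3 nearest genes of any member. A list of 3 does not show how closely the chains followed the members, which was not tested.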

How the data were processed

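The values were log2 ratios (sample, Cy5, over PIN pool, Cy3) of 2-colour cDNA arrays, deposited by the authors after their own normalization and used as given. No spot brightness was read, so the signal above background is not given here, and the number of arrays limits the precision. Of 17664 rows, 12563 carried 1 gene symbol, 412 several and 4689 none; clones of 1 symbol were averaged. A row entered the test with 4 or more invasive and 2 or more PIN values. Invasive was compared with PIN stroma by limma 3.58.1 (lmFit and eBayes, R 4.3.3) with Benjamini-Hochberg adjustment over 8106 genes or 17207 clones. Pairs were compared by exact permutation (scipy 1.17.1, numpy 2.4.6, Python 3.11.15). Replicates were separate mice. Members and lists were chosen with earlier results of these data known. Named were all members, up to 4 genes per pathway list past the threshold by smallest p, and the 3 genes most like each member. Col1a1, P3h1, Bmp1, P4ha2, Pdgfrb, Foxa2, Epcam, Krt18 and Cdh1 were named outside this rule, after their values were seen. The pairs planned first (Plod2 with Plod1, Loxl2 with Lox, P4ha1 with P4hb) each needed an unmatched gene. On simulated data of this size, 67 of 100 genes changed by 1 on the log2 scale and 98 of 100 changed by 2 were recovered with 33 false calls, and with none changed 0 were called. Replicate numbers did not pair the mice.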

Additional observations from a re-analysis of the deposited data

Results flagged for a closer look

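In Pcolce clone 5365, invasive replicate 2 stood apart from the other 5 invasive arrays at a log2 ratio of 1.76, with the nearest at 1.05. The gap was 0.683 of the group's whole range, against a critical value of 0.625 for 6 samples. Of 11 groups looked at among genes and clones this was the 1 with such an array, and chance alone flags about 1 in 20 groups.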

How the results depend on the processing

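Pcolce kept its direction in every setting tried and passed in most, but not under the methods' t-test with unequal variances (adjusted p = 0.451) or equal variances (0.225), quantile normalization (1.16, adjusted p = 0.153), or at the stricter threshold of 0.05. Scaling between arrays gave 1.20 (adjusted p = 0.117). Crtap passed with array weights (adjusted p = 0.0508) and with the invasive arrays tested against 0, where all 4 members passed, P4hb as lower (-0.30). The setting against 0 leaves out the PIN arrays, on which P4hb averaged -0.37, so it does not compare the stages. The counts of genes, clones and members passing were 457, 371 and 1. They became 207, 66 and 0 under the unequal-variance and 54, 37 and 0 under the equal-variance t-test, 1626, 2540 and 2 with array weights, 2595, 4439 and 4 against 0, and 76, 79 and 0 at 0.05. Quantile normalization gave 0 members. Leaving out 1 array gave 37 to 896 genes, 37 to 1179 clones and 0 to 2 members, lowest without PIN replicate 2 and highest without invasive replicate 3. The collagen biosynthesis list held 0 to 2 higher genes, and the chains 0 to 3, with 0 without PIN replicate 2.

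With the replicate number as a block, which leaves 6 arrays, 90 genes, 33 clones and 0 members passed; the same 6 without a block, a setting added after seeing the data, gave 137, 124 and 0. Same-numbered arrays had deviations correlated at -0.0858, -0.100 and -0.0187, so the numbers were not taken as pairs. On those 6 arrays, blocked or not, Serpinh1 (with its clone 7025) turned to -0.080, P4hb to -0.080 and Crtap clone 1140 to -0.16. Clone 1140 also turned under scaling (-0.015) and quantile normalization (-0.032), and ranged from -0.045 to 0.15 as arrays were left out. P4hb clone 15858 turned against 0 (-0.083) and clone 7023 under scaling (0.014); without single arrays they ranged from -0.024 to 0.51 and from -0.42 to 0.24. Serpinh1 ranged from -0.048 to 0.49 and P4hb from -0.056 to 0.15. Serpinh1 minus P4hb turned under quantile normalization (-0.083) and scaling (-0.059) and ranged from -0.20 to 0.54; the Pcolce clones' difference turned under quantile normalization (-0.037) and ranged from -0.026 to 0.20, and that of the P4hb clones from -0.26 to 0.73. The causes were not tested.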
